A study of Arabidopsis thaliana with 2 samples.

Results

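This account describes the ERF115 binding peaks assigned to 4 gibberellin-related or GRAS family genes of Arabidopsis thaliana: GAI (AT1G14920), RGL1 (AT1G66350), SCL23 (AT5G41920) and GA2OX6 (AT1G02400). They were picked by locus from the deposited annotated peak list because each had been assigned a peak, and each had exactly 1. They account for 4 of 612 peaks and 4 of 608 loci. Since having a peak is what chose them, their peak values are given as a description, with no test.

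Gibberellins are plant hormones that promote growth. They bind GID1 receptors, and the hormone-bound receptor brings DELLA proteins to an F-box protein that marks them for destruction. DELLA proteins are nuclear repressors of growth, so their removal releases it. Gibberellin 2-oxidases work at the other end of the pathway and inactivate the hormone. GAI and RGL1 encode 2 of the 5 DELLA proteins of Arabidopsis, and GA2OX6 encodes a gibberellin 2-oxidase. SCL23 encodes a GRAS protein outside the DELLA group, a close relative of SCARECROW that acts in the root endodermis. DELLA proteins themselves belong to the GRAS family, so 3 of the 4 genes share it.

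The ERF115 library came from PSB-D cells carrying 35S::ERF115-HBH, in which the constitutive 35S promoter drives ERF115, an AP2/ERF transcription factor, fused to a tag used for purification on nickel and streptavidin beads. The control was a mock purification from wild-type PSB-D cells, which lack the tagged protein. Both were dark-grown suspension cultures of the Landsberg erecta ecotype, kept in medium with the auxin NAA and the cytokinin kinetin, fixed for 10 minutes in 0.75% formaldehyde and collected on day 2 after subculture. There was 1 library of each, so no difference here has a replicate check. The cells are a culture and not root tissue, and ERF115 was not under its own promoter. The mock library's own values and the read counts were not analysed here, and the depth behind each peak is unknown.

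GAI had the peak with the highest score of the 4 genes, and GA2OX6, RGL1 and SCL23 followed. The score is the authors' own, from the peak caller MACS, and is the negative log10 of its p-value multiplied by 10. The score ranks peaks within this list and is not a fold enrichment or an occupancy. The 4 scores had a median of 89.9 and ran from 63.75 to 180.56, against a median of 78.9 and a range of 50.01 to 537.85 over all 612 peaks. GAI and GA2OX6 lay above the median of all peaks, while RGL1 and SCL23 lay below it.

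The peak of the DELLA gene GAI was the broadest of the 4. It ran over chromosome 1, 5146359 to 5152300 (TAIR10, 1-based), a width of 5942 bp, against a median width of 1894 bp over all peaks. Only 18 peaks of the list were wider, which put it at rank 19 of 612 by width. Its score of 180.56 ranked 48, so 7.68% of peaks scored higher. The authors' table, which names the gene RGA2, a synonym of GAI, labels the peak intergenic 3', a label carried by 19.1% of all peaks. Among the 117 peaks with that label it ranked 8 by score and 4 by width.

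The GAI peak was also lopsided. The authors give 1 position inside each peak, by a rule the sources used here do not give. In the GAI peak the position lay at 89.7% of the width, with 5330 bp on its lower-coordinate side and 611 bp on its higher-coordinate side. Its distance from the peak's midpoint, 2360 bp, was the second largest in the list, where the median was 209 bp. Whether the peak overlaps GAI itself was not tested, since peaks were not set against gene coordinates here. The nearest other peak lay 14.0 kb away, towards lower coordinates, and was assigned to PCR2 (AT1G14870). That peak was broad as well, with a width of 6512 bp, rank 11 by width and a score of 144.58.

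RGL1, the other DELLA gene with a peak, had a narrow and lower-scoring one. It lay at chromosome 1, 24743506 to 24744865, and was labelled intergenic 5', read as the upstream side of the gene. Its width was 1360 bp, so 76.3% of peaks were wider. Its score of 72.94 ranked 346 of 612 and 152 of the 275 intergenic 5' peaks, close to the middle of that class, whose median was 78.0. The authors' position lay near the midpoint, 55.5 bp from it. Of the 4 peaks this one stood farthest from any other, with 93.0 kb to the next peak, assigned to SAG24 (AT1G66580), and 382 kb on the other side. The peaks of the DELLA genes GAI and RGL1 thus differed in label, width and score.

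GA2OX6, the only gene of hormone inactivation among the 4, had the most compact peak. It lay at chromosome 1, 485142 to 486321, labelled intergenic 5'. Its width of 1180 bp ranked 592 of 612, which means that 96.6% of peaks were wider. Its score of 106.81 ranked 174 overall and 76 among the 275 intergenic 5' peaks. The position lay 12.5 bp from the midpoint. A peak assigned to NAC004 (AT1G02230, score 69.64) was the nearest, 47.5 kb away, and on the other side the next was that of the transcription factor gene ERF10 (AT1G03800, score 59.02) at 471 kb.

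SCL23 was the only 1 of the 4 genes with a label inside a gene. Its peak, at chromosome 5, 16779557 to 16782773, carried the label coding 3', as did 64 peaks in all. At 3217 bp it was broad, with 18.6% of peaks wider, while its score of 63.75 was the lowest of the 4, at rank 431 of 612 and 48 of 64 within its label. The position lay 19.0 bp from the midpoint. The nearest peaks stood 34.2 kb away, assigned to AT5G42053, and 111 kb away, assigned to AT5G41680.

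**Figure D1:**
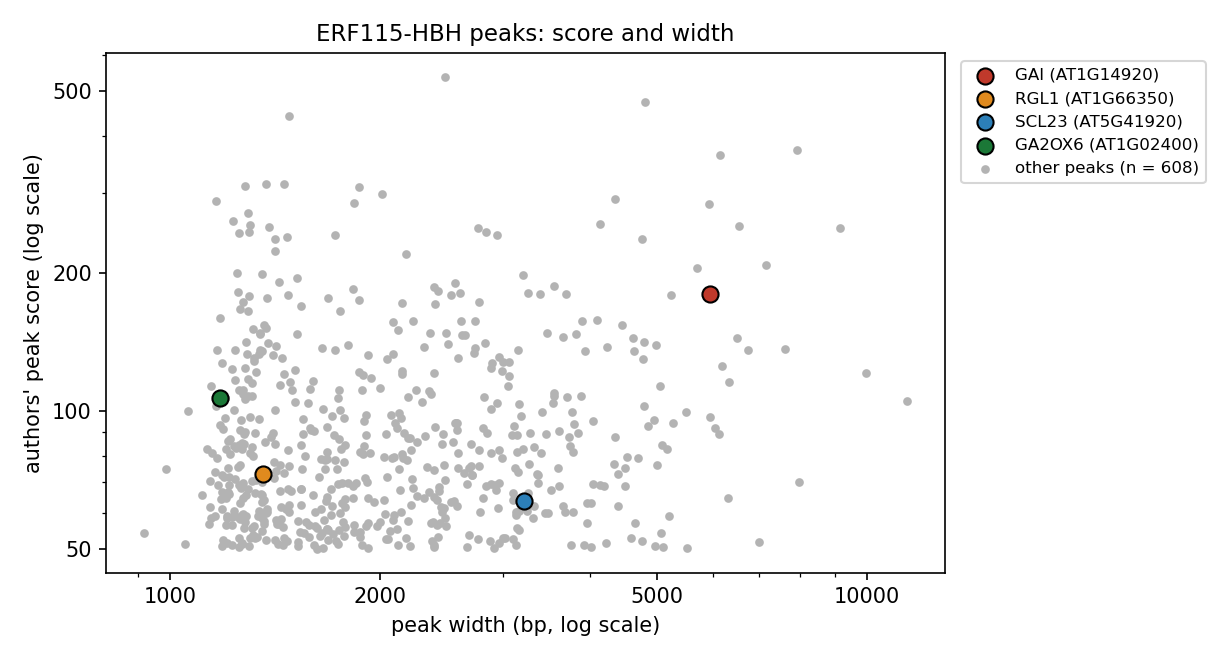
Each point is 1 ERF115-HBH peak, with its width in bp on the horizontal axis and the authors' score on the vertical axis, both on log scales. GAI (5942 bp, score 180.56) sits among the broad peaks, GA2OX6 (1180 bp, 106.81) and RGL1 (1360 bp, 72.94) among the narrow ones, and SCL23 (3217 bp, 63.75) among broad peaks of low score.

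**Figure D2:**
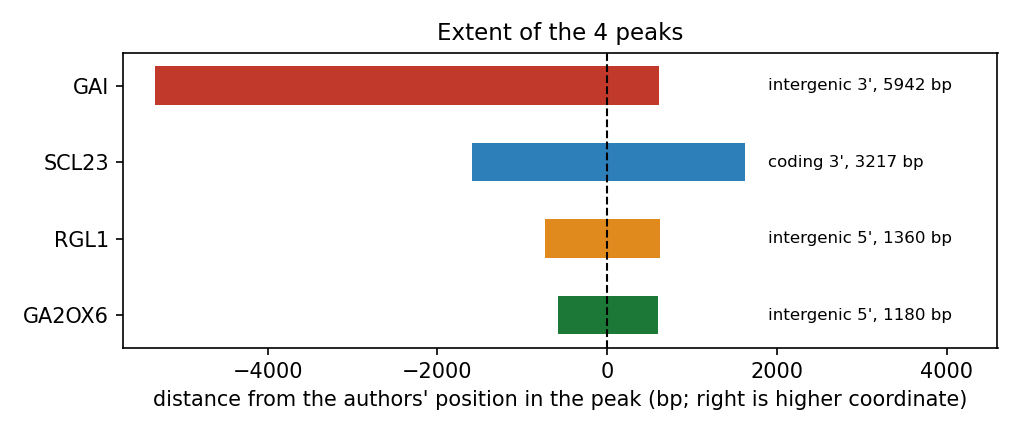
Bars show how far each of the 4 peaks extends in bp on either side of the position the authors give inside it, drawn at 0, with higher coordinates to the right and the authors' label beside each bar. The position is near the middle of the SCL23, RGL1 and GA2OX6 peaks and at 89.7% of the GAI peak.

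The order of the 4 genes turned on the measure. By score it was GAI, GA2OX6, RGL1 and SCL23. When the score was divided by width, GA2OX6 led with 90.5 score units per kb, and only 65 peaks of the list had more. Since the score is a transformed p-value, score per kb only orders the peaks and is not a density of binding. RGL1 had 53.6 score units per kb, GAI 30.4 and SCL23 19.8, against a median of 41.1 over all peaks. GA2OX6 and RGL1 thus stood above that median and GAI and SCL23 below it. The share of peaks with more score per kb was 10.6% for GA2OX6, 31.7% for RGL1, 69.8% for GAI and 88.7% for SCL23. SCL23 came last by both measures.

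**Figure D3:**
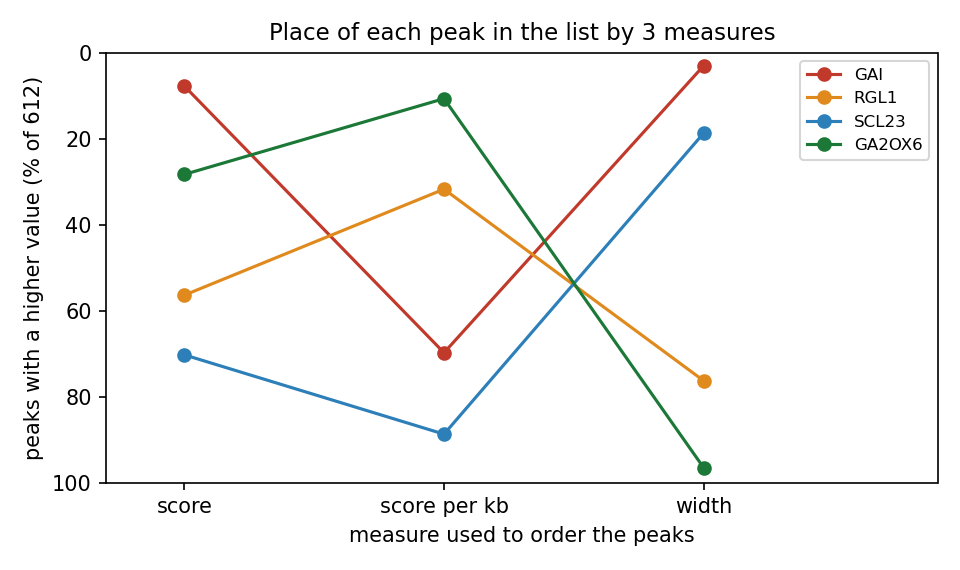
For each of the 4 genes, points give the share of the 612 peaks with a higher value (in %, with 0 at the top) by score, by score per kb and by width, and lines only connect the points of 1 gene. GAI goes down the list when score is divided by width, with 7.68% of peaks above it by score and 69.8% by score per kb, while GA2OX6 goes up, with 28.3% and 10.6%. Score per kb is not a density of binding.

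Peaks with nearly equal scores were at genes outside the gibberellin and GRAS lists described below. The likeness used was the distance in score within the 612 peaks, and the nearest 2 above and 2 below each gene are given. Around GAI these were AT1G78070 (181.56), AT3G50790 (181.32), AT1G11210 (180.24) and AT1G80450 (180.02), all narrower than the GAI peak, at 2602 to 3695 bp. Around GA2OX6 they were AT5G14720 (107.25), ATL6 (107.16), PIRL6 (106.73) and AT5G20090 (106.68). The PIRL6 peak resembled that of GA2OX6 in width, at 1200 bp, and in its intergenic 5' label. Around RGL1 they were the actin gene ACT12 (73.16), AT5G41400 (72.99), AT1G53380 (72.84) and AT4G21580 (72.71). Around SCL23 they were PMT6 (63.77), ERF5 (63.76), AT4G06650 and AT5G33399 (63.32 each). The ERF5 peak, at an AP2/ERF gene, carried the same coding 3' label as that of SCL23.

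In the gene order of the names table the 4 genes have 8 directly adjacent protein-coding genes, of which 0 were assigned a peak. Of all nuclear protein-coding genes 2.06% were assigned one, so nothing is read from a count of 0 among 8. The neighbours were AT1G14910 and AT1G14930 beside GAI, AT1G66345 and AT1G66360 beside RGL1, and AT1G02405 and GPAT2, a glycerol phosphate acyltransferase gene, beside GA2OX6. Beside SCL23 they were MED10A, a Mediator subunit gene, and AT5G41940. Each peak is assigned to 1 locus only, so a broad peak that also reaches a neighbour would not be counted there. The nearest gene with a peak was 4 protein-coding genes away from GAI, counting the genes in between, against 12 for SCL23, 17 for GA2OX6 and 23 for RGL1. The authors' mark TP, in a column headed DE, is not explained in the sources used here. It stands beside 22 of all 612 peaks and beside none of these 4, so nothing is read from its absence. Of the 4 genes, 3 lie on chromosome 1, which held 143 peaks, and SCL23 lies on chromosome 5, which held 147.

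The rest of the gibberellin pathway was then read against the background. Of 27444 nuclear protein-coding genes, 564 were assigned a peak, which is 2.06%. A list of 47 genes for gibberellin synthesis, inactivation, perception and response held 3 with a peak, all of them among the 4 genes above, or 6.38%. Because these genes were chosen for their peaks, nothing is read from the excess. The 3 scores had a median of 106.81, against 78.9 over all peaks.

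By role, peaks were assigned to 2 of 5 DELLA genes and 1 of 11 inactivation genes. At the background share of 2.06% these roles would hold 0.103 and 0.226 genes with a peak. GAI, RGL1 and GA2OX6 were chosen for their peaks, so nothing is read from the excess. RGA, RGL2 and RGL3, the other DELLA genes, had no peak. Neither did the other 2-oxidase genes of the list (GA2OX1, GA2OX2, GA2OX3, GA2OX4, GA2OX7 and GA2OX8), the gibberellin methyltransferase genes GAMT1 and GAMT2, or the cytochrome P450 genes CYP714A1 and CYP714A2. Of the 3 receptor genes, GID1A, GID1B and GID1C, 0 had a peak. The same count of 0 was found for 4 genes of DELLA turnover and modification: the F-box genes SLY1 and SNE and the sugar transferase genes SPY and SEC. None of the 14 synthesis genes, from GA1 to the GA20OX and GA3OX families, had one, nor did any of 10 partner and response genes such as SCL3, IDD1, PIF3, PIF4 and MYB33. At the background share the synthesis genes would hold 0.288 genes with a peak and the whole list 0.966, so these zeros do not set the roles apart. With depth unknown, the lack of a peak does not show the lack of binding.

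**Figure D4:**
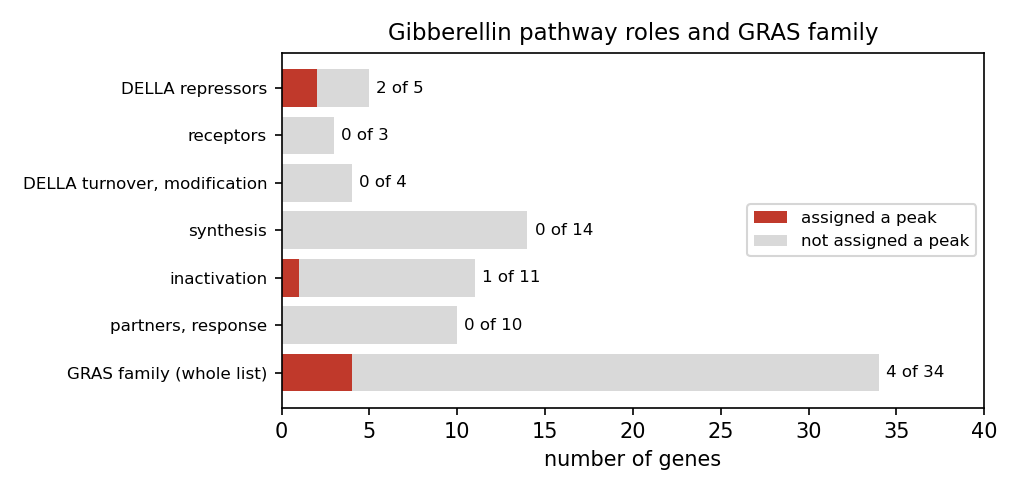
Bars give the number of genes on each list, by role in the gibberellin pathway and for the GRAS family as a whole, with genes assigned an ERF115-HBH peak in red and the others in grey. Peaks fall on 2 of 5 DELLA genes, 1 of 11 inactivation genes and 4 of 34 GRAS genes, and on no gene of the other 4 roles. Of all nuclear protein-coding genes 2.06% were assigned a peak. GAI, RGL1, SCL23 and GA2OX6 were chosen for theirs, so nothing is read from the excess.

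Across the GRAS family, 4 of 34 genes had a peak, or 11.8%, beside the background of 2.06%. At the background share the list would hold 0.699 genes with a peak. GAI, RGL1 and SCL23 were again chosen for theirs, so nothing is read from the excess. Outside the DELLA genes the count was 2 of 29, namely SCL23 and AT1G07520, which has no symbol in the names table and was placed on the list by its locus. Its peak lay at chromosome 1, 2311481 to 2313794, with a width of 2314 bp, an intergenic 5' label and a score of 64.55, close to the 63.75 of SCL23. The 4 GRAS scores had a median of 68.7, and GAI was the only 1 of them above the median of all peaks. The root regulators SHR and SCR, which act in the endodermis as SCL23 does, were without a peak, as were PAT1, LAS and the HAM genes.

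Raising the score threshold separated the 4 genes into pairs. All 4 stayed at a score of at least 60, where 1.58% of protein-coding genes kept a peak. At a score of at least 100, where 0.656% did, GAI and GA2OX6 stayed and RGL1 and SCL23 dropped out. The same pair was left among the 306 peaks with the highest scores, which covered 1.04% of protein-coding genes. This pair held 1 DELLA gene and 1 inactivation gene, with 1 broad and 1 compact peak. With 5' labels alone, which left a peak at 1.36% of protein-coding genes, the 4 genes were reduced to RGL1 and GA2OX6. With a gene also counted where its direct neighbour had a peak, 5.93% of protein-coding genes counted, and the gibberellin and GRAS lists had 5 of 47 and 7 of 34.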

How the data were processed

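ERF115-HBH chromatin and a mock from wild-type cells were sequenced, with 1 library each. The build was TAIR10 and the tools were MACS 1.4.2, BWA 0.5.9, Picard, SAMtools 0.1.18 and CASAVA 1.8.2, per the submitters' processing notes, which give no order, parameters or filters. TAIR10 represents the Columbia accession, whereas the cells were Landsberg erecta. The peak score, locus, label and position are those the authors deposited. Scores were used only to describe and rank peaks within the list.

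Widths, ranks, midpoints and gaps between peak edges were computed from the deposited coordinates with Python 3.11.15 and pandas 2.3.3. The code for score ranks, widths, gaps and counts of assigned genes was tested on simulated data. The code for midpoints was not. Names and gene order came from a RefSeq table of assembly TAIR10.1. Its gene start coordinates were used only to put the genes in order, not to place peaks against genes. It held 600 of the 608 loci. Of the 75 loci on the 2 lists, 59 carried the intended name there and 16 were placed by locus. Of the lists, 6 genes are on both. Named genes are the 4 genes, list genes, gene-order neighbours and nearest scores, plus flanking peaks, chosen after their values were seen. The 4 genes and the lists were chosen with earlier results of these data known. No test was run. Planned motif searches and protein comparisons were not run because no sequences were at hand.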

Additional observations from a re-analysis of the deposited data

How the results depend on the processing

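No paired analysis was possible because there was 1 library of each kind, and for the same reason leaving out a replicate was not an option. Of the 4 genes, 2 kept a peak at a score of at least 100, 2 among the 306 highest-scoring peaks and 2 with 5' labels only. The share of all protein-coding genes with a peak, 2.06%, moved along to 0.656%, 1.04% and 1.36% under these, and to 5.93% with adjacent genes counted. The gibberellin count of 3 became 2 under each of the first 3 settings and 5 with adjacent genes. The GRAS count of 4 became 1 at a score of at least 100 (0.223 at the background share), 1 among the 306 peaks (0.353), 2 with 5' labels (0.463) and 7 with adjacent genes (2.02). At a score of at least 60 all 3 counts were as with all peaks, while the background was 1.58%. By width, 2.94% of peaks stood above GAI, 76.3% above RGL1, 18.6% above SCL23 and 96.6% above GA2OX6. By score per width the shares were 69.8%, 31.7%, 88.7% and 10.6%, against 7.68%, 56.4%, 70.3% and 28.3% by score. Dividing by width lowers the place of a broad peak and raises that of a narrow one. The moves between score and score per width thus follow from the widths, downwards for GAI and SCL23 and upwards for RGL1 and GA2OX6. What lies behind the widths was not tested. By score within each label the shares, in the same order of genes, were 5.98%, 54.9%, 73.4% and 27.3%. With 1 library the spread of these ranks is unknown. Alternatives for the GCC-box were not run for lack of sequences. With depth unknown, a gene without a peak cannot be called unbound.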

Other observations

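A few genes of the lists had no peak of their own but stood directly beside a gene with one, in the gene order of the names table. These pairs were named after their values were seen. The receptor gene GID1B lies next to AT3G63020, whose peak was labelled coding 3' with a score of 50.54, near the minimum of the list. That peak ran over chromosome 3, 23290705 to 23295804, a width of 5100 bp. KAO2, an ent-kaurenoic acid oxidase gene of gibberellin synthesis, lies next to AT2G32450, with an intergenic 3' peak at chromosome 2, 13781044 to 13782828, and a score of 84.33. In the GRAS family, AT2G37650 lies next to the expansin gene EXP3, whose peak, labelled intergenic 5', scored 118.02. AT3G49950 lies next to LBD38, a LOB domain gene, with an intergenic 3' peak scoring 69.39, and SCL14 lies next to AT1G07520. Whether any of these peaks reaches the list gene was not tested.

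A search for "gibberell" in the symbols and synonyms of the names table found 19 protein-coding genes, of which 2 had a peak, GAI and GA2OX6, beside a share of 2.06% over all nuclear protein-coding genes. Both were chosen because they had a peak, so nothing is read from this count. RGL1 and SCL23 carry no such word in their names there.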
